A study of Mus musculus with 10 samples.

Results

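This is an account of 10 genes of insulin and insulin-like growth factor (IGF) signaling in bone marrow derived macrophages (BMDMs) of Rac2-/- and WT mice, out of 19937 genes that the arrays name by a feature of their own. They comprise the ligand Igf1, the binding protein Igfbp4, the receptors Insr and Igf1r, the adaptors Irs1, Irs2 and Grb10, the transcription factors Foxo1 and Foxo3, and the RNA-binding protein gene Igf2bp3. The genes were chosen by their place in the pathway, with earlier results of these arrays known, and Insr and Igfbp4 are also among the genes that the study picked out on the same arrays. Counts over the 10 genes are therefore a description, not independent evidence of a direction. A feature is a group of array probes that is summarized as 1 log2 value. All 10 genes were found, 8 of them with a single feature, and for Insr and Irs1, with 2 features each, the feature with the highest mean over the 10 arrays was used, without regard to genotype.

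The Rac2-/- and WT groups held 5 arrays each, numbered 1 to 5, of BMDMs from male C57BL mice. Rac2-/- mice lack the small GTPase Rac2 in every cell, not in macrophages alone, and WT mice carry it. In both groups marrow cells were depleted of fibroblasts by letting these adhere, then grown with 20% fetal bovine serum and 50 ng/ml MCSF at 16% oxygen with no other treatment. The labels give the time as 7 days on MCSF in one place and as 8 days of culture in another. The study asked how loss of Rac2 changes macrophage differentiation. The labels speak of 5 mice per genotype but do not tie an array to a mouse. The p-values below therefore rest on array-to-array spread, which may partly be technical.

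The deposited values were log2 values from RMA, which corrects background, normalizes arrays to each other and summarizes probes, and the array medians lay between 6.07 and 6.14. Rac2 itself lay between 6.80 and 7.54 in Rac2-/- arrays, against 11.81 to 12.42 in WT arrays, so each array matched its label (difference -5.00, SE 0.17, 32.1-fold lower, p = 0.00794 in a two-sided exact permutation test, which can give no smaller p for groups of 5). Arrays 1 and 2 of both genotypes stood apart from arrays 3 to 5, with correlations of 0.974 to 0.996 within these sets and 0.934 to 0.955 between them. No label says what parts the 2 sets, and each holds both genotypes in equal number. The 11 macrophage markers averaged 11.32 to 11.51 in Rac2-/- arrays and 11.24 to 11.45 in WT arrays, with 8 higher and 3 lower means in Rac2-/- arrays. Of these Mrc1, the mannose receptor, rose by 0.66 (adjusted p = 0.00352), while Fcgr1, an Fc receptor, had the widest difference, -0.74 (adjusted p = 0.123 without the array number as a block and 0.0449 with it), and the block called 3 markers higher and 1 lower. Averages over the 11 proliferation markers ranged from 7.76 to 10.26 in Rac2-/- arrays and from 7.41 to 8.10 in WT arrays, with 10 of 11 means higher in Rac2-/- arrays and 0 past the test (0 also at an unadjusted p under 0.05). The 10 mast cell and basophil markers averaged 5.06 to 5.21 in Rac2-/- arrays and 5.25 to 5.77 in WT arrays, and of the 7 tested Hdc, the histamine-making enzyme, was called lower (adjusted p = 0.0185). Of those 7, 6 had lower means and 1 a higher mean in Rac2-/- arrays, and 5 were lower at an unadjusted p under 0.05. In the marker lists of other cells, Itgax (difference 1.95) and Ccr7 (-0.91) of the dendritic list and Kdr (-1.87) of the endothelial list also passed. So did Pf4 (1.39) of the erythroid and megakaryocyte list and Fabp4 (-1.58) of the adipocyte list. Median differences of these lists were -0.06, 0.02, 0.05 and -0.60 in that order, and 1.9% of all features passed. A place in a list does not mean that macrophages lack the gene. No gene of the neutrophil, T cell, B cell and osteoclast lists passed (1 B cell gene higher and 1 osteoclast gene lower at an unadjusted p under 0.05, and with the block). The part of these markers in the results below was not tested. In such bulk RNA, fewer cells of a type and less RNA per cell cannot be told apart.

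Insulin and IGFs bind related receptor tyrosine kinases at the cell surface. The activated receptors phosphorylate docking proteins of the IRS family, which recruit PI 3-kinase and so switch on the kinase AKT. AKT in turn drives growth and glucose uptake and holds FOXO transcription factors out of the nucleus, where these would otherwise turn on genes that include Insr and Irs2. Macrophages are themselves a source of IGF1 in tissues.

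Short stretches of 4 promoters are shown first, because they bear letters that the field links to transcription of these genes: the GC box GGGCGG of Igf1r, the TATA box TATAAA of Igfbp4, and in Irs1 and Irs2 the E-box CACGTG beside TGTTTTG, the insulin response element through which FOXO factors act on Irs2 in liver. They were read from RefSeq promoter windows of build GRCm38.p6, which matched 9 of the 10 genes, and Insr had no window. Each is given 5′ to 3′ along the gene's strand, with the searched letters in capitals. The stretches were picked for these matches.
Igf1r, chr7:67952157-67952256, plus strand, ending at the base before the start of transcription: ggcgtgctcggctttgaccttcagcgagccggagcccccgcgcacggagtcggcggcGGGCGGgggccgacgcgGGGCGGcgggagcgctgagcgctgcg
Igfbp4, chr11:99041144-99041243, plus strand, ending at the base before the start of transcription: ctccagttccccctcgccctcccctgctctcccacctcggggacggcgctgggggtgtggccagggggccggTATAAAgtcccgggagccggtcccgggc
Irs1, chr1:82291529-82291569, minus strand: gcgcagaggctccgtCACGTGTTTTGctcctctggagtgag
Irs2, chr8:11008945-11008988, minus strand: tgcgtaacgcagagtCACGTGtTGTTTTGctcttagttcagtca

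Igfbp4 was the only one of the 9 genes with a TATA box, which starts 28 bases before the start of transcription and is present in 13.6% of all 32851 windows searched on both strands. Igf1r had none, and its GC boxes begin 43 and 26 bases before the start (35.7% of all windows hold a GC box, as did those of 6 of the 9 genes). In Irs1 the E-box begins 115 bases before the start and overlaps the insulin response element by its last letters, and in Irs2 the E-box begins 44 bases before the start with 1 base between the motifs. The E-box was found in 7.15% and TGTTTTG in 6.28% of all windows, and both together in 0.408%. The FOXO core GTAAACA, held by 3.65% of windows, was in none of the 9 genes' windows. A match describes the letters only.

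Of the 10 genes, Insr and Igfbp4 rose in Rac2-/- BMDMs and none fell (limma, Benjamini-Hochberg adjusted over all features tested, threshold 0.05), while 1.9% of all features passed, 0.795% higher and 1.11% lower in Rac2-/- BMDMs. Igf1r had the widest difference of the 10 genes but missed the threshold in this fit. The labels do not pair arrays by number, and whether same-numbered arrays vary together beyond the shift between the array sets was not tested. A fit with the array number as a block called Igf1r as well, with 3 of the 10 genes higher and 0 lower. With the block 6.35% of all features passed, 3.32% higher and 3.03% lower. In these 3 genes every Rac2-/- array lay above every WT array, which held for 2.18% of all features. At an unadjusted p under 0.05 the same 3 genes were higher and 0 were lower. All 10 genes lay above the floor of the filter on low features, 4.73, in every array, and their median difference was 0.20, against -0.00034 over all features. Passing the floor does not show expression, as it lies below the array medians of 6.07 to 6.14. The deleted Rac2 still read 6.80 to 7.54 in Rac2-/- arrays. Irs1 and Grb10 in all arrays, and Igf1r in WT arrays, read below that range. Among Rac2-/- arrays Igf1r read 6.64 to 7.69, and only array 3 was above the range. Irs2 (6.27 to 7.04) and Igf2bp3 (6.62 to 7.47) lay within or below it in every array. Foxo1 lay within it in Rac2-/- array 1 and in WT arrays 1 and 2.

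**Figure D1:**
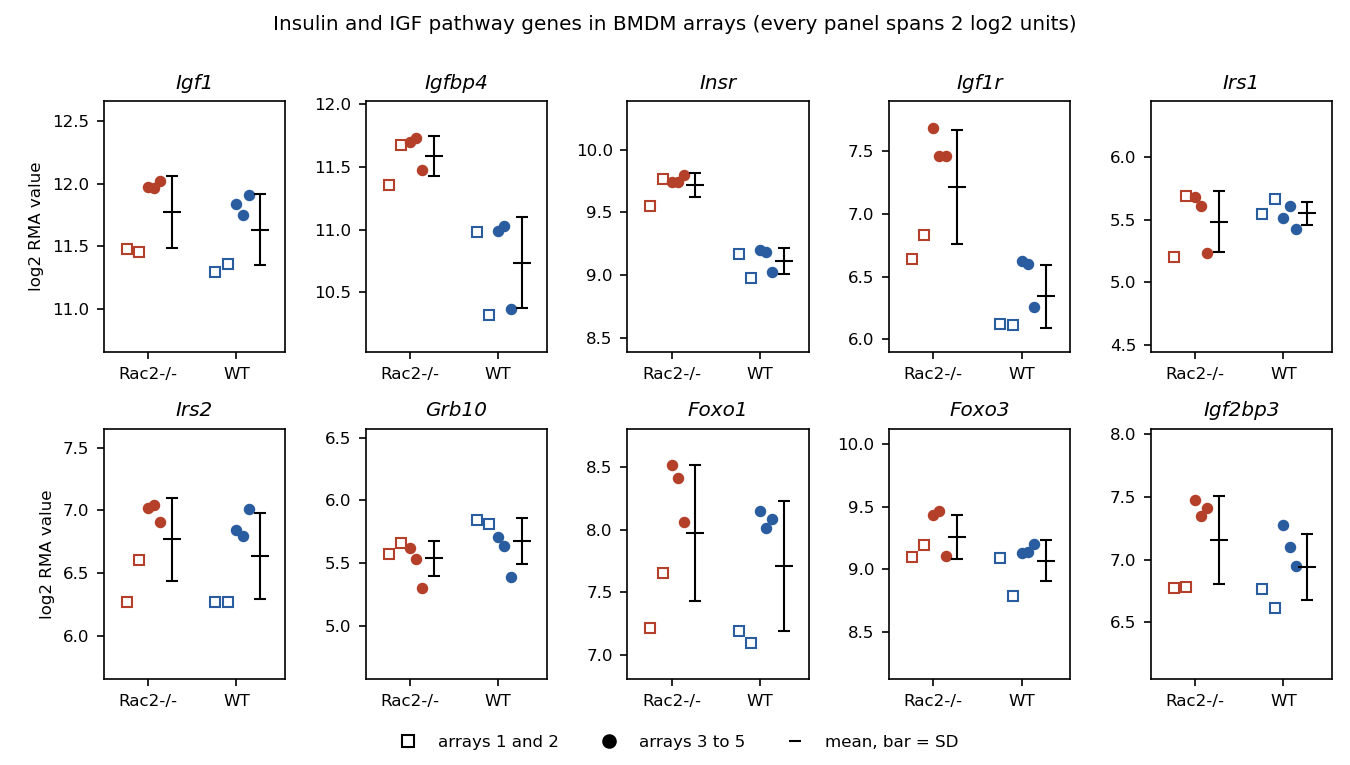
The log2 RMA value (vertical axes, each spanning the same number of log2 units) of each gene in each of the 5 Rac2-/- arrays (red, left) and 5 WT arrays (blue, right), with arrays 1 and 2 as open squares, arrays 3 to 5 as filled circles, and the mean with its SD as black bars. Rac2-/- and WT arrays of Igfbp4, Insr and Igf1r do not overlap, and in Igf1, Igf1r, Irs2, Foxo1 and Igf2bp3 arrays 1 and 2 lie low in both genotypes.

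Insr encodes the insulin receptor. It measured 9.55, 9.76, 9.74, 9.74 and 9.80 in Rac2-/- arrays 1 to 5, against 9.17, 8.97, 9.20, 9.18 and 9.03 in WT arrays 1 to 5. The lowest Rac2-/- array was 0.35 above the highest WT array, and both groups were tight, with means of 9.72 ± 0.10 in Rac2-/- arrays and 9.11 ± 0.10 in WT arrays (SD, n = 5 each). Insr was thus 1.53-fold higher in Rac2-/- BMDMs, a log2 difference of 0.61 (SE 0.08, 95% interval 0.43 to 0.79, adjusted p = 0.00463). It passed with any 1 array left out, with adjusted p of 0.00319 to 0.0190. The gene's other feature read 8.70, 8.93, 9.00, 8.93 and 8.94 in Rac2-/- arrays and 8.28, 8.00, 8.35, 8.39 and 8.29 in WT arrays, again without overlap (difference 0.63, SE 0.10, 1.55-fold, adjusted p = 0.00915). Both features come from the same RNA, so they are not separate replicates.

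Igf1r encodes the receptor for IGF1, a close relative of the insulin receptor. Its values were 6.64, 6.83, 7.69, 7.46 and 7.46 in Rac2-/- arrays 1 to 5, and 6.12, 6.11, 6.63, 6.60 and 6.26 in WT arrays 1 to 5. The groups only just failed to overlap, as Rac2-/- array 1 exceeded WT array 3 by 0.015. The means were 7.22 ± 0.45 in Rac2-/- arrays and 6.34 ± 0.25 in WT arrays (SD, n = 5 each), a difference of 0.87 (SE 0.21, 95% interval 0.40 to 1.35, 1.83-fold, adjusted p = 0.0808). Number by number, the Rac2-/- array was higher in 5 of 5 pairs, by 0.52 to 1.21, and with the array number as a block the adjusted p was 0.00904. Igf1r was lower in arrays 1 and 2 than in arrays 3 to 5 within each genotype, which widens the error of the fit without a block. When 1 array was left out without the block, it passed in 1 of 10 fits, that without Rac2-/- array 1 (difference 1.02, adjusted p = 0.0274).

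Igfbp4 encodes a secreted protein that binds IGFs and keeps them from their receptor. It was at 11.36, 11.67, 11.70, 11.73 and 11.47 in Rac2-/- arrays 1 to 5, compared with 10.98, 10.32, 10.98, 11.03 and 10.37 in WT arrays 1 to 5. The lowest Rac2-/- array stood 0.33 above the highest WT array, and WT arrays 2 and 5 lay well below the other WT arrays. The means of 11.59 ± 0.16 in Rac2-/- arrays and 10.74 ± 0.36 in WT arrays (SD, n = 5 each) differed by 0.85 (SE 0.17, 95% interval 0.48 to 1.22), or 1.80-fold, with adjusted p = 0.0302. The call depended on which array was left out. It held in 3 of 10 such fits and was lost without Rac2-/- array 2, 3, 4 or 5 or WT array 2, 3 or 5. Adjusted p rose to 0.0909 at most, while the difference stayed between 0.75 and 0.92 over the 10 fits.

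Igf1, the growth factor itself, was read at 11.48, 11.45, 11.98, 11.96 and 12.02 in Rac2-/- arrays 1 to 5, against 11.30, 11.36, 11.84, 11.75 and 11.91 in WT arrays 1 to 5. The groups overlapped, but each Rac2-/- array was above the WT array of its number, by 0.09 to 0.22. The difference of 0.15 (SE 0.17, 95% interval -0.23 to 0.52) did not pass without the block (adjusted p = 0.975) or with it (adjusted p = 0.190). Stromal cells also make Igf1 and Igfbp4. The 10 fibroblast and stroma markers averaged 5.88 to 6.23 in Rac2-/- arrays and 6.03 to 6.35 in WT arrays, with 2 higher and 6 lower means among the 8 tested and 0 past the threshold (1 higher and 3 lower at an unadjusted p under 0.05, and 1 higher and 1 lower with the block in limma). Differences among the 8 tested ran from -1.21, for Dcn, to 0.62. Among them, Col1a1 and Col1a2 had means of 7.65 and 7.19 in Rac2-/- arrays, against 7.82 and 7.41 in WT arrays. The part of the stroma markers in the Igfbp4 difference was not tested.

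**Figure D2:**
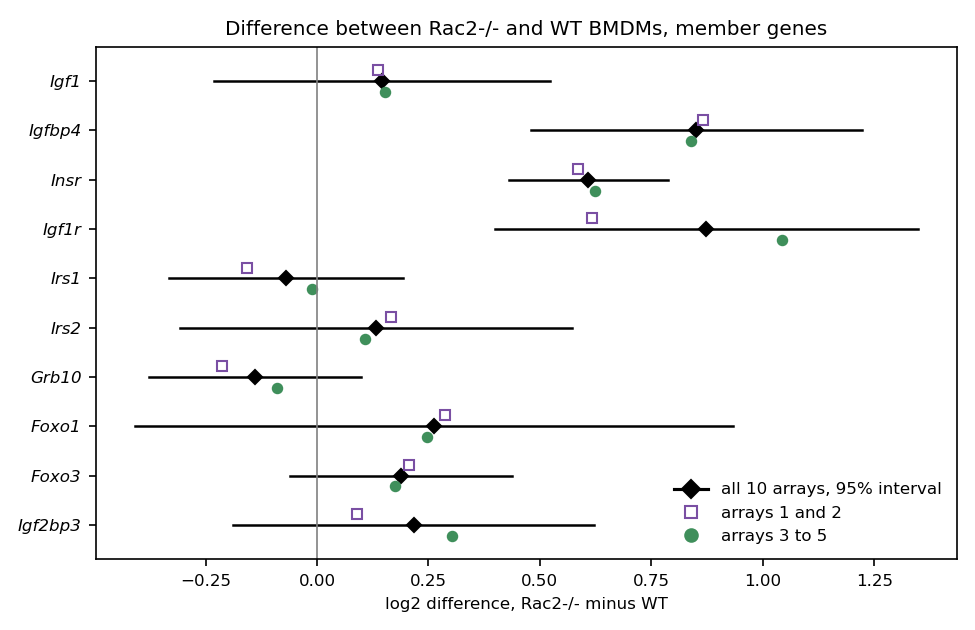
Differences in log2 value, Rac2-/- minus WT (horizontal axis), of the 10 genes over all 10 arrays (diamonds, with 95% intervals from limma), over arrays 1 and 2 (open squares) and over arrays 3 to 5 (filled circles). The intervals of Igfbp4, Insr and Igf1r lie above 0, and Igf1r has the widest gap between the array sets, with 0.62 in arrays 1 and 2 and 1.04 in arrays 3 to 5.

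The adaptors gave no call. Irs2, a docking protein that carries signals from both receptors, read 6.27, 6.60, 7.02, 7.04 and 6.91 in Rac2-/- arrays 1 to 5 and 6.27, 6.27, 6.84, 6.80 and 7.01 in WT arrays 1 to 5. The groups overlapped almost fully, and the difference was 0.13 (SE 0.20, 95% interval -0.31 to 0.57, adjusted p = 0.999). Irs1, its relative, read 5.20, 5.68, 5.68, 5.61 and 5.23 in Rac2-/- arrays 1 to 5 and 5.54, 5.66, 5.51, 5.61 and 5.42 in WT arrays 1 to 5. Rac2-/- arrays 1 and 5 were low and the others lay among the WT arrays, and the difference of -0.07 (SE 0.12, 95% interval -0.33 to 0.19, adjusted p = 0.999) turned in sign with array weights (0.0033) and without Rac2-/- array 1 (0.00010). The other Irs1 feature did not pass the filter, with means of 4.44 in Rac2-/- arrays and 4.40 in WT arrays.

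Grb10 encodes an adaptor that binds both receptors and restrains them. It was at 5.57, 5.66, 5.62, 5.53 and 5.30 in Rac2-/- arrays 1 to 5 and at 5.84, 5.81, 5.71, 5.64 and 5.39 in WT arrays 1 to 5. The groups overlapped, yet each Rac2-/- array lay below the WT array of its number, with paired differences from -0.27 to -0.08. The difference was -0.14 (SE 0.11, 95% interval -0.38 to 0.10, adjusted p = 0.869 without the block and 0.241 with it).

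Foxo1 and Foxo3 encode transcription factors that AKT inactivates. Foxo1 read 7.21, 7.65, 8.52, 8.41 and 8.06 in Rac2-/- arrays 1 to 5, against 7.19, 7.10, 8.15, 8.01 and 8.09 in WT arrays 1 to 5. Its values followed the array number more than the genotype, and its difference of 0.26 had the widest error of the 10 genes (SE 0.30, 95% interval -0.41 to 0.93, adjusted p = 0.974). Foxo3 read 9.10, 9.19, 9.44, 9.46 and 9.10 in Rac2-/- arrays 1 to 5, against 9.09, 8.78, 9.13, 9.14 and 9.20 in WT arrays 1 to 5. Rac2-/- arrays 3 and 4 were the highest and WT array 2 the lowest, and the difference was 0.19 (SE 0.11, 95% interval -0.06 to 0.44, adjusted p = 0.718).

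Igf2bp3 encodes a protein that binds the mRNA of Igf2 and other growth genes and is best known from fetal tissue and tumors. It stood at 6.77, 6.78, 7.47, 7.35 and 7.41 in Rac2-/- arrays 1 to 5 and at 6.76, 6.62, 7.28, 7.10 and 6.95 in WT arrays 1 to 5. Rac2-/- was the higher in 5 of 5 pairs, by as little as 0.01 for number 1 and as much as 0.46 for number 5, but the groups overlapped (difference 0.22, SE 0.18, 95% interval -0.19 to 0.62, adjusted p = 0.901). Higher means in Rac2-/- arrays were seen for 8 of the 10 genes and lower ones for Irs1 and Grb10, where 49.9% of all features had the higher mean. All 5 pairs were higher for 5 genes (Igf1, Igfbp4, Insr, Igf1r and Igf2bp3), as for 11.9% of all features.

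**Figure D3:**
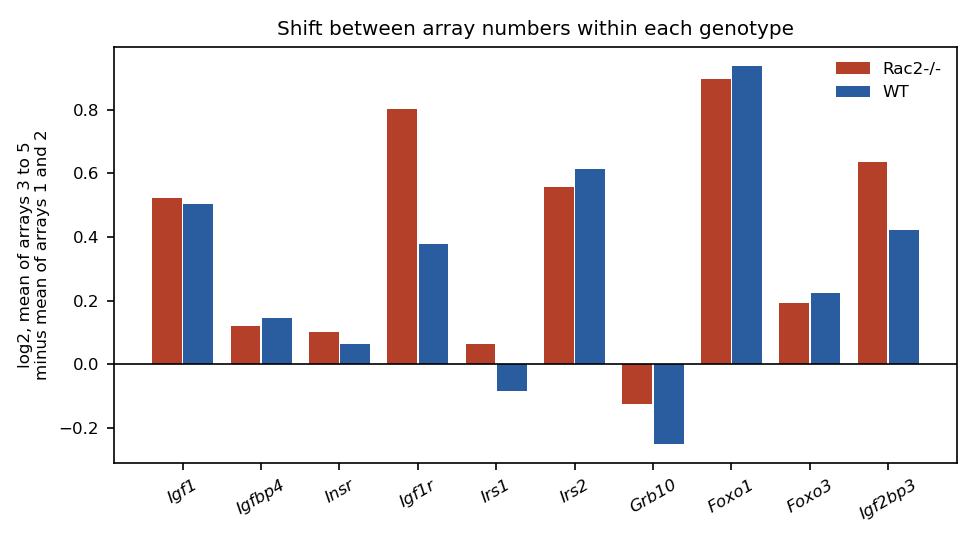
Mean log2 value of arrays 3 to 5 minus that of arrays 1 and 2 (vertical axis) for each gene, in Rac2-/- (red, left bar) and WT (blue, right bar) BMDMs. Foxo1 shifted most, by 0.90 in Rac2-/- and 0.94 in WT arrays, Insr by 0.10 in Rac2-/- and 0.06 in WT arrays, and Igf1r by 0.80 in Rac2-/- arrays against 0.38 in WT arrays.

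The 10 genes differed in how far they moved with the array sets. Foxo1, Irs2 and Igf1 shifted between the sets by about as much in Rac2-/- as in WT arrays (0.90 and 0.94, 0.56 and 0.61, 0.52 and 0.50), all by more than they differed between genotypes. Igf2bp3 shifted by 0.63 in Rac2-/- and 0.42 in WT arrays, against a genotype difference of 0.22. Insr and Igfbp4 shifted by no more than 0.15 in either genotype, and their genotype differences were alike within the sets, at 0.59 in arrays 1 and 2 and 0.62 in arrays 3 to 5 for Insr, and 0.87 and 0.84 for Igfbp4. For Igf1r the genotype difference was 0.62 in arrays 1 and 2 and 1.04 in arrays 3 to 5. The test of that change, an interaction of genotype and set in limma, gave adjusted p = 0.865 for Igf1r and 0.865 to 0.997 over the 10 genes, and it called 0% of all features (1560 features and 0 of the 10 genes at an unadjusted p under 0.05). A term for the sets in the fit left every difference as it was and called 3 of the 10 genes, with adjusted p of 7.79e-04 for Insr, 0.00136 for Igf1r and 0.00962 for Igfbp4, while 4.98% of features were called higher. Arrays 3 to 5 alone called Insr and Igf1r (adjusted p = 0.00926 for each) and not Igfbp4 (adjusted p = 0.0531), with 2.46% of features called higher. Arrays 1 and 2 alone called none of the 10 genes (3 at an unadjusted p under 0.05), and 0.0074% of all features.

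The wider pathway was read from 11 further lists of 132 genes, of which 122 were on the arrays and 121 passed the filter. Without the block 2 of 121 (1.65%) passed, Sesn1 higher and Phlpp1 lower in Rac2-/- BMDMs, against 1.9% of all features, and with it 10 were higher and 9 lower (15.7%), against 6.35% of all features. Means were higher for 64 and lower for 57 genes in Rac2-/- arrays, and the median difference was 0.01. The genes named below were taken for passing 1 of these fits, or for the largest difference in a list where none passed, and the lists were drawn up with earlier results known.

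Sesn1, a stress-induced inhibitor of mTORC1 and a target of FOXO factors, had means of 11.52 ± 0.04 in Rac2-/- arrays and 11.02 ± 0.05 in WT arrays (SD, n = 5 each), without overlap. It rose by 0.50 (SE 0.06, 1.41-fold, adjusted p = 0.00361) and passed with any 1 array left out. Its relative Sesn3, with means of 7.30 ± 0.27 in Rac2-/- arrays and 6.73 ± 0.15 in WT arrays, was higher by 0.57 (adjusted p = 0.0707 without the block and 0.0130 with it). Of the 21 other FOXO factors and FOXO targets tested, 1 was called higher and 0 lower without the block (4 higher and 2 lower at an unadjusted p under 0.05). Over all features 0.795% were called higher and 1.11% lower without the block, and 3.32% and 3.03% with it. With the block 3 of the 21 were higher and 1 lower. The third higher gene was Sod2, the mitochondrial superoxide dismutase (difference 0.38, adjusted p = 0.149 without the block and 0.0325 with it). The lower one was Pik3ip1, which restrains PI 3-kinase (difference -0.31, adjusted p = 0.160 without the block and 0.0324 with it).

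Receptor phosphatases and feedback inhibitors, the brakes on these receptors and on AKT, had 10 lower and 3 higher means in Rac2-/- arrays among the 13 tested. Phlpp1, a phosphatase that removes an activating phosphate from AKT, averaged 7.47 ± 0.23 in Rac2-/- arrays and 8.29 ± 0.30 in WT arrays (SD, n = 5 each), and it fell by 0.82 on the log2 scale (SE 0.16, 1.77-fold, adjusted p = 0.0293). The groups did not overlap, but the call held in only 2 of 10 fits with an array left out (adjusted p up to 0.0904). The block also called Socs1, a suppressor of cytokine and insulin receptor signaling, lower (difference -0.51, adjusted p = 0.431 without the block and 0.0354 with it). Trib3, a pseudokinase that binds AKT, was called lower as well (difference -0.77, adjusted p = 0.281 without the block and 0.0237 with it). Rac2-/- and WT arrays overlapped for both Socs1 and Trib3. With the block 3 genes of the list were lower, Phlpp1 included, where 3.03% of all features were called lower. No gene of the list was called higher in either fit (0 at an unadjusted p under 0.05).

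Among 18 receptor adaptors, Gab1, a docking protein that links receptors to PI 3-kinase, differed most. It averaged 9.94 ± 0.35 in Rac2-/- arrays and 8.52 ± 0.75 in WT arrays (SD, n = 5 each) and did not overlap between them. Its difference was 1.42 (SE 0.33, 2.68-fold, adjusted p = 0.0688 without the block and 0.00602 with it). The block also called the ubiquitin ligase gene Cbl higher (difference 0.41, adjusted p = 0.719 without the block and 0.0210 with it). It called its relative Cblb lower (difference -0.97, adjusted p = 0.436 without the block and 0.0136 with it). Rac2-/- and WT arrays overlapped for both Cbl and Cblb. Gab1, Cbl and Cblb aside, no adaptor passed in either fit. With the block 3.32% of all features were called higher and 3.03% lower.

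No other IGF binding protein was called higher. Of 13 binding proteins and their proteases 0 passed without the block (0 higher and 2 lower at an unadjusted p under 0.05). The block called 3, all lower in Rac2-/- BMDMs, where 3.03% of all features were called lower. Igfbp6, which prefers IGF2, averaged 5.76 ± 0.27 in Rac2-/- arrays and 6.25 ± 0.12 in WT arrays (SD, n = 5 each) without overlap (difference -0.49, adjusted p = 0.107 without the block and 0.0168 with it). Igfbp5 differed by -0.33 (adjusted p = 0.0443 with the block) and Igfbp7 by -0.73 (adjusted p = 0.0482 with the block), with overlapping groups. Igf2r, the receptor that takes IGF2 to the lysosome, was higher by 0.34 without overlap (adjusted p = 0.149 without the block and 0.0326 with it).

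Of the 12 PI 3-kinase, PDK1 and AKT genes, 13 mTOR branch genes and 13 metabolic effectors tested, 4 passed with the block alone, higher in Rac2-/- BMDMs, where 3.32% of all features were called higher. Pik3cg, the leukocyte PI 3-kinase catalytic subunit gene, differed by 0.41 (adjusted p = 0.0271), Pdpk1, the kinase that activates AKT, by 0.26 (adjusted p = 0.0421), and Deptor, an inhibitor of mTOR, by 0.84 (adjusted p = 0.00551). Slc2a1, the glucose transporter GLUT1, averaged 11.19 ± 0.14 in Rac2-/- arrays and 10.59 ± 0.35 in WT arrays (SD, n = 5 each) without overlap, a difference of 0.60 (adjusted p = 0.116 without the block and 0.0265 with it). Dcn, an extracellular matrix gene from the imprinted list that is also 1 of the stroma markers above, differed by -1.21 (adjusted p = 0.137 without the block and 0.0173 with it). The ligand list and the Igf2bp and Lin28 list had no call in either fit (0 of 3 and 1 of 4 at an unadjusted p under 0.05), and their widest differences were -0.15 for Insl6 and 0.25 for Arid3a.

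**Figure D4:**
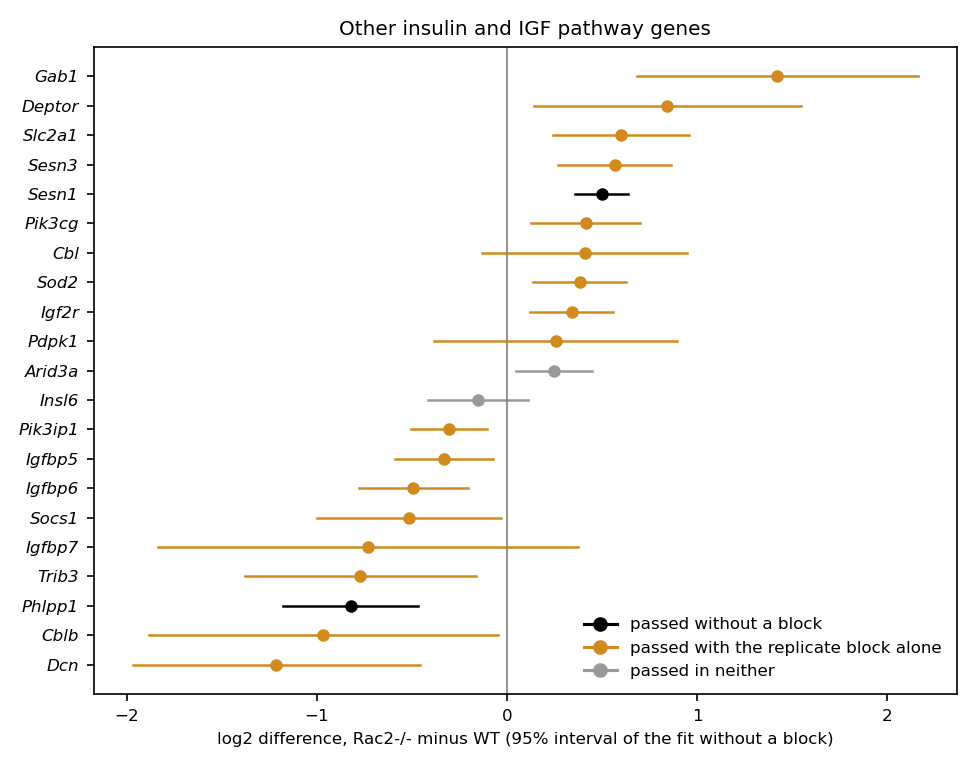
Difference in log2 value, Rac2-/- minus WT (horizontal axis), with its 95% interval from the limma fit without a block, of the 21 named pathway genes, coloured by the fit in which they passed. Sesn1 at 0.50 and Phlpp1 at -0.82 passed without a block, and Gab1 at 1.42 and Dcn at -1.21 mark the ends of the range.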

How the data were processed

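Total RNA of 5 Rac2-/- and 5 WT BMDM cultures was hybridized to Affymetrix mouse arrays. The authors deposited log2 values made with RMA, named in the submitters' processing notes, for 34760 features. No source used here gives its version or says whether the ComBat batch correction of the methods entered the deposited values. Values ran from 1.69 to 13.69, 0 pairs of arrays were identical, and the number of arrays limits the precision. Features were named by the platform annotation (21640 with 1 symbol, 1321 with several, 11799 unnamed), with symbols updated through 21553 matched gene IDs. Features were ranked by their fourth-highest value and the top 27031 retained, since the methods retain that many genes expressed in at least 4 samples.

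Rac2-/- was compared with WT in limma 3.58.1 (R 4.3.3) with lmFit and eBayes and no covariate, Benjamini-Hochberg adjustment over the 27031 features and a threshold of 0.05. After each group's mean was subtracted, arrays of the same number in both genotypes correlated at 0.493 to 0.716. The shift between the array sets was still in these values and can give such correlations without any pairing by number. The correlations therefore cannot show a pairing, and the labels state none. A fit with the number as a block, which assumes a pairing, was set beside the fit without a covariate. The 10 genes and all lists were chosen with earlier results of these data known. All 10 genes are named, as are pathway genes past the threshold with or without the block and, in lists with none, the gene with the largest difference. Alternatives were no filter, the block, a term for arrays 1 and 2, a trended robust variance, array weights, renewed quantile normalization, median centring, either array set alone, each array left out, the mean of a gene's features, and a threshold of 0.01. Raw scanner files were not used here. Motifs were searched on both strands of RefSeq windows from 250 bases before to 50 after each start.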

Additional observations from a re-analysis of the deposited data

Results flagged for a closer look

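In groups of 5, an array that lay far from the other 4 was looked for with Dixon's test in 66 groups of values, and 7 stood apart, where chance flags about 1 in 20 groups. Insr measured 9.55 in Rac2-/- array 1, below the 9.74 to 9.80 of the other Rac2-/- arrays, and its other feature did the same, with 8.70 against 8.93 to 9.00. That other feature was also low in WT array 2, with 8.00 against 8.28 to 8.39 in the other WT arrays. Each of these arrays still lay on its own group's side. Foxo3 was low in WT array 2, at 8.78 against 9.09 to 9.20. Among the pathway genes, Sod2 was low in Rac2-/- array 2, at 11.76 against 11.93 to 11.97 in the other Rac2-/- arrays. WT array 1 was high for Sesn1, at 11.11 against 10.995 to 11.007, and for Pik3ip1, at 7.41 against 7.14 to 7.21 in the other WT arrays.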

How the results depend on the processing

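Counts below are of all features, of the 10 genes and of the 121 pathway genes past the threshold, which were 514, 2 and 2 in the comparison without a block. Without the filter, with a trended robust variance, with renewed quantile normalization or with median centring these counts stayed within 1.5 times. They were 1716, 3 and 19 with the replicate block, 2524, 3 and 24 with a term for the array sets, and 1811, 3 and 13 with array weights. Over arrays 1 and 2 alone they were 2, 0 and 0, over arrays 3 to 5 alone 1487, 2 and 9, and at an adjusted p of 0.01 they were 164, 1 and 1. Leaving out 1 array gave 245 to 625 features, 1 to 3 of the 10 genes and 1 to 2 pathway genes, and the feature count was smaller by over 1.5 times without Rac2-/- array 2, 3 or 4 (322, 297 and 274) or WT array 2, 3, 4 or 5 (297, 245, 263 and 281). Fewer arrays enter those fits. The cause of the moves was not tested. The replicate block turned the call of Igf1r and of no other of the 10 genes. Of the refits of each of the 10 genes, 175 kept direction and side, 5 passed newly (all Igf1r), 10 missed the threshold (9 of Igfbp4, 1 of Insr) and 2 turned in sign, both for Irs1 (0.0033 with array weights and, with 1 array left out, a range of -0.12 to 0.00010, the highest without Rac2-/- array 1). Of those of the 21 pathway genes named, 339 kept direction and side, 50 passed newly and 10 missed the threshold. The mean of both features gave 0.62 for Insr and -0.01 for Irs1. Signal over background could not be judged from the deposited values.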
